A study of Mus musculus with 6 samples.

Results

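The tubulin isotypes and the enzymes that add or remove amino acids on tubulin tails were followed in testes of mice at postnatal day 14. Genes were taken from the deposited count table by symbol, as Tuba, Tubb, Tubg, Tubd or Tube, Ttll and Agbl followed by a digit, with pseudogene names left out. The rule gave 37 genes of the 50763 symbols in the table, namely 19 tubulins, 13 Ttll genes and 5 Agbl genes, and 6 pseudogene rows were left out. Of the 37 genes, 33 had enough reads to be tested. The study compared 3 wild-type testis samples (WT) with 3 samples labelled sKO, in which, by the series title, Rif1 was conditionally deleted in germ cells that have not yet entered meiosis. Neither Cre driver nor strain nor deleted exons could be taken from the labels. Whether each sample is a different animal is not labelled either, and the p-values therefore cover only the spread seen among these libraries, which may be technical.

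Microtubules are polymers of α- and β-tubulin, and vertebrates carry several genes for each, which differ mainly in the acidic tail that projects from the microtubule surface. Enzymes of the TTLL family attach chains of glutamate (glutamylases) or glycine (glycylases) to these tails, and cytosolic carboxypeptidases, encoded by the Agbl genes and Agtpbp1, trim glutamates off. Such chains are dense on axonemes, the microtubule core of cilia and of the sperm tail, and several of these enzymes are needed in the mouse for motile sperm. The γ-tubulins nucleate microtubules, and δ- and ε-tubulin take part in building centriole triplets.

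Total counts per library ranged from 15941672 to 18296594, and levels are given as CPM (counts scaled to a common library size) on library sizes scaled by the TMM method. A count of 0 allows up to 0.165 to 0.187 CPM (3 counts per library), a limit for counting error alone. The targeted gene Rif1 stood at 96.5, 83.7 and 129 CPM in the WT libraries, in order of their number, and at 42.0, 46.4 and 49.2 CPM in the sKO libraries. Tests used edgeR's quasi-likelihood F test over 18860 genes, and a gene is called when its Benjamini-Hochberg adjusted p is under 0.05. The tissue label was checked with marker genes, and the summed Sertoli cell markers (10 genes, 0 of them at 0 counts in every library) stood at 4259 to 5089 CPM in WT and 5298 to 6387 CPM in sKO. Summed epididymis markers (8 genes) reached 163 CPM in sKO library 1 against 4.26 to 22.2 CPM in the other 5 libraries. Because whole testes were sequenced, fewer cells of a type and less RNA per cell cannot be told apart in any value below.

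Tail enzymes had lower estimates in sKO more often than the tubulins themselves. Of the 33 tested genes edgeR called 3 lower, the carboxypeptidase gene Agbl5 and the glutamylase genes Ttll13 and Ttll9, and 0 higher. Over all tested genes 1.27% were called lower and 0.0318% higher (1.3% in either direction). DESeq2 called 6 lower and 0 higher, adding Agbl2, Ttll8 and Tuba3b, against 3.82% and 0.297% of all genes, and limma-voom called 0 members in either direction, against 0.0795% of all genes called lower. At an unadjusted edgeR p under 0.05 there were 10 lower and 4 higher members, against 8.54% and 5.06% of all genes. All sKO libraries lay below all WT libraries for 9 of the 33 members and above them for 4, against 10.7% and 9.58% of all genes tested. Estimates were below 0 for 17 of the 33 members, against 44.7% of all genes. The median log2 fold change was -0.39 for the 16 tested enzymes, 0.21 for the 17 tested tubulins and 0.03 for all genes tested, and the difference between enzymes and tubulins was not tested.

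**Figure D1:**
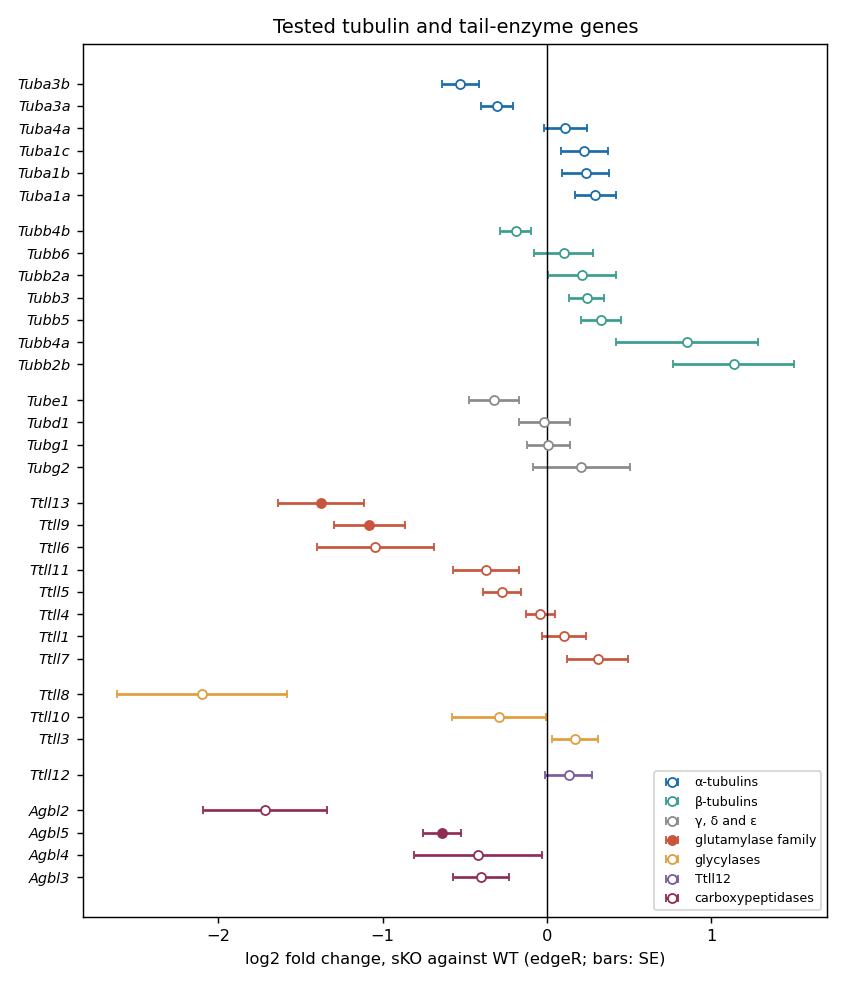
Log2 fold change of sKO against WT (x axis, edgeR estimate, bars are SE) for the 33 tested genes, grouped by class. Filled points are the 3 genes called by edgeR (Agbl5, Ttll13 and Ttll9), and 12 of the 16 enzymes but 5 of the 17 tubulins lie to the left of 0.

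All 3 calls rested on particular libraries. They were lost on leaving out library 1 or 2 of either group, and kept without WT library 3 or sKO library 3. Without WT library 1 edgeR called 101 genes of the whole table lower, and without WT library 2 or without sKO library 1 or 2 it called 0 in either direction. In those 3 fits 1662, 1410 and 1221 genes were lower at an unadjusted edgeR p under 0.05, and 1102, 431 and 503 were higher. DESeq2 and limma-voom were not run on them. The estimates of these 3 genes stayed below 0 with each library left out in turn.

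The levels of the tubulins spanned a wide range. Scaled to length (CPM per kb of exon, with exon lengths from the GENCODE M21 annotation of GRCm38), the most abundant transcript in WT was Tuba3a at 326, followed by Tubb4b at 315, Tuba1a at 255, Tuba3b at 249, Tuba1b at 230.2, Tubb5 at 188 and Tubb3 at 106. Means ± SD of Tuba3a and Tubb4b overlapped, as did those of each neighbouring pair from Tuba1a through Tuba3b and Tuba1b to Tubb5, whereas Tubb4b and Tuba1a, and Tubb5 and Tubb3, did not. In sKO the order of CPM per kb began with Tuba1a at 312, Tubb4b at 275, Tuba1b at 271 and Tuba3a at 264. Both orders are uncertain, because several α-tubulin genes share sequence or exons with other genes (given below). The most abundant enzymes in WT were Ttll12 at 25.9 and Ttll4 at 17.5 CPM per kb, and Agbl5 stood at 12.7. The lowest tested member was Agbl4 at 0.156 CPM per kb in WT.

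**Figure D2:**
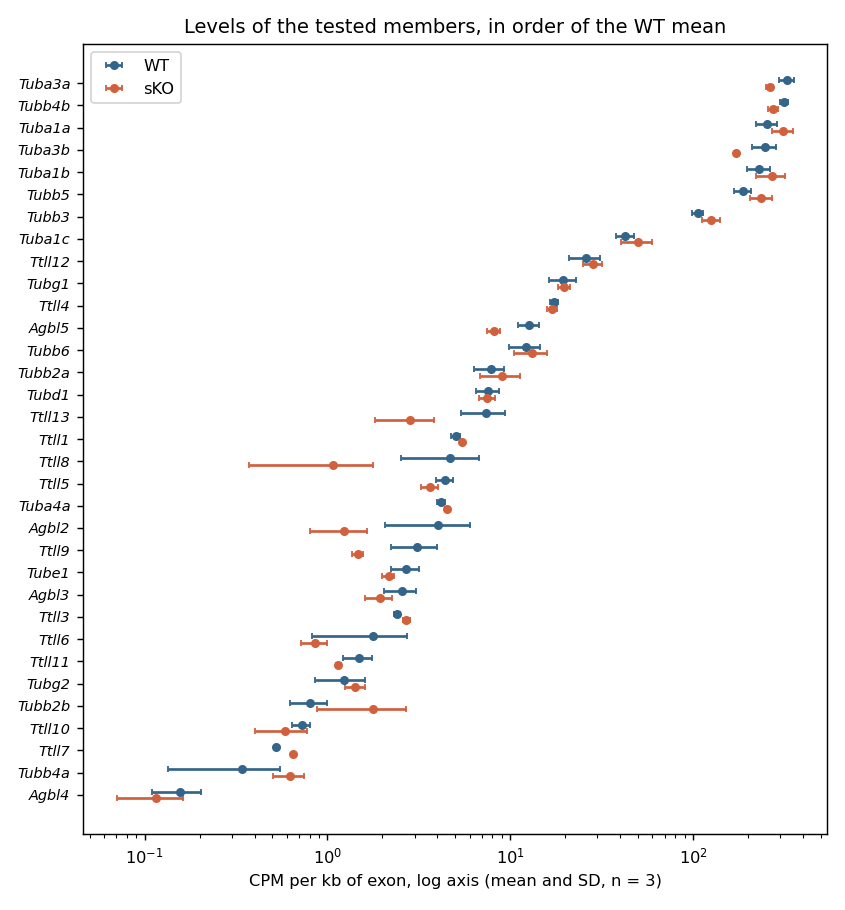
Mean level in CPM per kb of exon (x axis, log scale, bars are SD, n = 3 per group) of the 33 tested genes, ordered by the WT mean. The main α- and β-tubulins stand between 106 and 326 in WT, and the sKO points of Ttll13, Ttll8, Agbl2 and Ttll9 lie to the left of their WT points.

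Among the α-tubulins, the genes Tuba3a and Tuba3b, which are expressed mainly in male germ cells, had lower values in sKO. Tuba3b stood at 499, 456 and 368 CPM in WT and at 304, 312 and 302 CPM in sKO, in order of library number. The groups did not overlap, and the 3 sKO libraries lay close together. The log2 fold change was -0.53 (SE 0.11, edgeR adjusted p = 0.0511, DESeq2 adjusted p = 0.00103), a mean 1.44-fold lower. Tuba3b was called by edgeR with another library scaling (RLE, adjusted p = 0.0474), without WT library 3 (0.0143) and without sKO library 3 (0.0438), and its adjusted p over all alternatives ranged from 6.76e-05 to 0.234. Tuba3a stood at 500.0, 532 and 445 CPM in WT and at 403, 413 and 379 CPM in sKO. Its groups did not overlap either, with a log2 fold change of -0.31 (SE 0.10, edgeR adjusted p = 0.169). Of the 50-base windows of the Tuba3a transcripts in GENCODE M21, 32.4% also occur in Tuba3b, so reads may be split between them in an unknown way. Of the exon bases of Tuba3a 4.97% are also exons of 4930417O13Rik on the opposite strand.

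The other α-tubulins had estimates above 0. Tuba1a, a broadly expressed isotype, stood at 403, 455 and 519 CPM in WT and at 631, 573 and 483 CPM in sKO. The groups overlapped, because sKO library 3 lay below WT library 3 (log2 fold change 0.29, SE 0.12, edgeR adjusted p = 0.334). Tuba1b (376 to 589 CPM over all libraries), Tuba1c (84.96 to 132 CPM) and Tuba4a (15.03 to 17.1 CPM) had overlapping groups and log2 fold changes from 0.11 to 0.23. For any pair among Tuba1a, Tuba1b and Tuba1c, 42.5% to 59.3% of the 50-base windows of one also occur in the other. Of the exon bases of Tuba1a 26.2%, and of Tuba1b 22.7%, are also exons of the protein-coding Gm49450 on the same strand. For Tuba4a 37.3% of the exon bases are also exons of Stk16 on the opposite strand. These counts are therefore uncertain. Tuba8 had 6 to 18 counts per library and was not tested.

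Shares within a library do not depend on library scaling, so the make-up of the α-tubulin transcripts was compared in that way. The shares carry the same uncertainty as the counts above. Tuba3a and Tuba3b together made up 56.8%, 53.7% and 45.4% of α-tubulin counts per kb in the WT libraries and 37.6%, 40.7% and 44.3% in the sKO libraries, in order of number. All sKO shares lay below all WT shares, though sKO library 3 and WT library 3 were close. The mean share was 52.0% ± 5.93 in WT and 40.9% ± 3.35 in sKO (SD, n = 3 each), a difference of -11.1 percentage points. The share of Tuba1a was 23.0% ± 2.71 in WT and 29.0% ± 0.961 in sKO (SD, n = 3 each), also without overlap. An exact two-sided permutation test over libraries gave p = 0.1 for both shares, the smallest that 3 against 3 libraries allow. Groups without overlap always give this p, and the shares were chosen after the values were seen, so it adds no support. Shares of a pool add up to a whole, so a lower share of one isotype raises the others. Within the pair, Tuba3b made up 45.9%, 42.2% and 41.3% of the Tuba3a and Tuba3b counts per kb in WT and 39.1%, 39.1% and 40.4% in sKO, so its share was lower in every sKO library too.

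Among the β-tubulins, Tubb4b, a major isotype of axonemes, and Tubb5, the most abundant β-tubulin of dividing cells, had estimates of opposite sign. Tubb4b stood at 631, 692 and 647 CPM in WT and at 595, 597 and 532 CPM in sKO. Its groups did not overlap, but the difference was small (log2 fold change -0.19, SE 0.09, edgeR adjusted p = 0.401). Of the exon bases of Tubb4b 5.8% are also exons of Fam166a on the opposite strand. Tubb5 stood at 560.3, 628 and 690.2 CPM in WT and at 888, 802 and 671 CPM in sKO. Here sKO library 3 lay within the WT range, and the log2 fold change was 0.33 (SE 0.12, edgeR adjusted p = 0.2497). Per kb, Tubb4b made up 51.6%, 50.5% and 47.7% of β-tubulin counts in WT and 39.5%, 42.2% and 43.4% in sKO, while Tubb5 made up 28.7%, 28.8% and 31.9% in WT and 36.9%, 35.6% and 34.4% in sKO. Both shares were without overlap, at 49.9% ± 2.03 against 41.7% ± 2.01 for Tubb4b and 29.8% ± 1.81 against 35.6% ± 1.30 for Tubb5 (WT against sKO, SD, n = 3 each), with an exact two-sided permutation p of 0.1 each. These shares too were chosen after the values were seen, and they depend on each other.

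**Figure D3:**
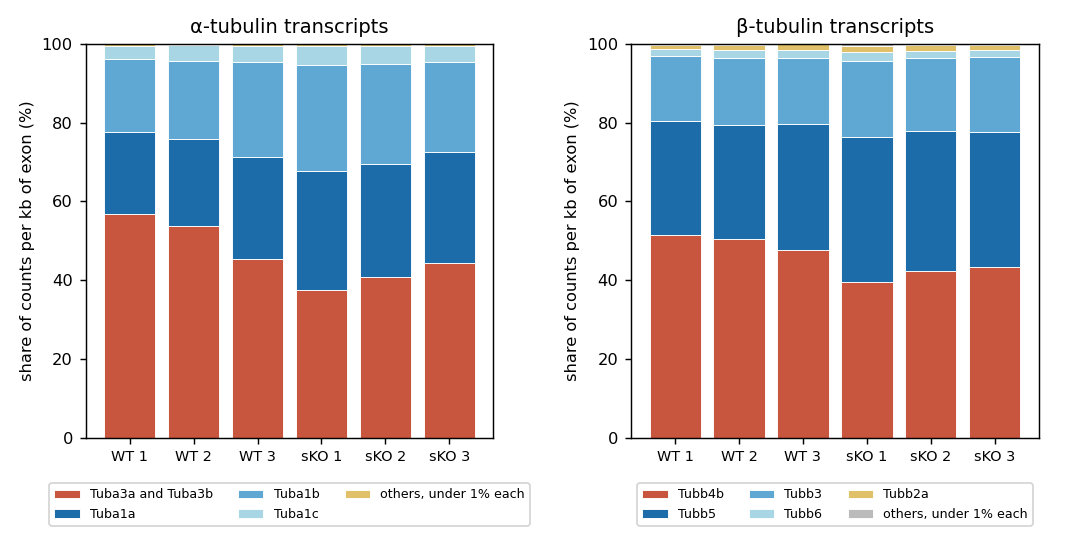
Share of each isotype (y axis, percent of counts per kb of exon) among α-tubulin (left) and β-tubulin (right) transcripts in each of the 6 libraries. The lowest block, Tuba3a and Tuba3b on the left and Tubb4b on the right, is smaller in all 3 sKO libraries (37.6% to 44.3% and 39.5% to 43.4%) than in all 3 WT libraries (45.4% to 56.8% and 47.7% to 51.6%).

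Tubb3, known as a neuronal isotype, was abundant in these testes and ranged from 183 to 261 CPM, with overlapping groups (log2 fold change 0.24, edgeR adjusted p = 0.342). Its share of β-tubulin counts per kb was without overlap, at 16.7% to 17.1% in WT and 18.6% to 19.3% in sKO. This share was also chosen after the values were seen, and it depends on the shares of the other isotypes. Summed neuron markers (8 genes, 3 of them under 1 CPM on average) stood at 30.3 to 40.9 CPM in WT and 30.03 to 42.1 CPM in sKO. Most of this sum came from Elavl3 (17.1 to 33.9 CPM), while Snap25, Nefl and Stmn2 reached at most 0.648 CPM. The part of neurons in the Tubb3 level was not tested. Tubb2b, the isotype with the largest positive estimate of the members, stood at 2.13, 2.06 and 1.37 CPM in WT and at 6.43, 3.45 and 2.42 CPM in sKO. The groups did not overlap, and sKO library 1, which also held the most epididymis marker RNA, was highest. The log2 fold change was 1.14 (SE 0.37, edgeR adjusted p = 0.182), and it was 0.63 without sKO library 1 (edgeR adjusted p = 0.615, with a range of 0.00790 to 0.615 over all alternatives). The part of epididymal RNA in it was not tested, and 33.4% of the 50-base windows of Tubb2b also occur in Tubb2a. Tubb2a (10.04 to 18.1 CPM), Tubb6 (23.2 to 38.6 CPM) and Tubb4a (0.435 to 1.63 CPM) overlapped between groups, with log2 fold changes of 0.21, 0.10 and 0.85. Tubb1, the platelet isotype, had 1 to 7 counts per library and was not tested.

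The tubulins of centrosomes and centrioles showed no call. Tubg1, the main γ-tubulin, stood at 38.6, 52.97 and 41.5 CPM in WT and at 45.5, 47.4 and 40.9 CPM in sKO. The sKO values lay inside the WT range, and the log2 fold change was 0.01 (SE 0.13, edgeR adjusted p = 0.987), with a sign that turned under RLE scaling (-0.01). Tubd1, δ-tubulin, stood at 17.8, 13.4 and 15.9 CPM in WT and at 17.3, 15.1 and 14.2 CPM in sKO, again with overlap (log2 fold change -0.02, SE 0.16, edgeR adjusted p = 0.974). Tubg2 ranged from 1.402 to 2.79 CPM and Tube1, ε-tubulin, from 15.7 to 25.1 CPM, with overlapping groups and log2 fold changes of 0.21 and -0.32.

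Among the 8 tested glutamylase-family genes edgeR called 2 lower and 0 higher, against 1.27% and 0.0318% of all genes. DESeq2 also called 2 lower and 0 higher, against 3.82% and 0.297% of all genes. At an unadjusted edgeR p under 0.05, 4 were lower and 0 higher, against 8.54% and 5.06% of all genes. Ttll13, which lengthens glutamate chains, stood at 40.8, 30.9 and 23.7 CPM in WT and at 9.01, 10.5 and 17.2 CPM in sKO. All sKO libraries lay below all WT libraries, with sKO library 3 nearest to them. On the log2 scale Ttll13 fell by 1.38, with an SE of 0.26 (edgeR adjusted p = 0.04403), a mean 2.601-fold lower in sKO. With each library left out in turn the estimate ranged from -1.74 to -1.16 and the edgeR adjusted p from 0.00674 to 0.219.

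Ttll9, a glutamylase-family gene needed in the mouse for normal sperm flagella, stood at 14.4, 8.78 and 9.45 CPM in WT and at 5.47, 5.15 and 4.78 CPM in sKO. WT library 1 stood above the other libraries, and the sKO libraries lay close together below all WT values. On the log2 scale Ttll9 fell by 1.08, with an SE of 0.22 (edgeR adjusted p = 0.0439), a mean 2.12-fold lower, and by 0.83 without WT library 1 (edgeR adjusted p = 0.109). Its edgeR adjusted p with each library left out ranged from 0.0365 to 0.198. Of the exon bases of Ttll9 3.7% are also exons of Gm14199 on the opposite strand.

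The remaining glutamylases did not pass the test. Ttll4, which starts glutamate chains and was the most abundant of them, stood at 205, 189.9 and 209 CPM in WT and at 199.8, 205 and 183 CPM in sKO, with overlapping groups (log2 fold change -0.04, SE 0.09, edgeR adjusted p = 0.881). Ttll11, which lengthens chains, had values of 5.61, 7.19 and 5.16 CPM in WT and 4.505, 4.78 and 4.56 CPM in sKO, without overlap (log2 fold change -0.37, SE 0.20, edgeR adjusted p = 0.459). Ttll1, the catalytic subunit of the neuronal and ciliary polyglutamylase complex, had values of 14.3, 14.1 and 15.6 CPM in WT and 15.9, 15.7 and 15.7 CPM in sKO. These were higher in every sKO library by a small margin (log2 fold change 0.10, SE 0.13, edgeR adjusted p = 0.7797). Ttll7, which glutamylates β-tubulin, had values of 4.37, 4.24 and 4.35 CPM in WT and 5.41, 5.33 and 5.33 CPM in sKO, also higher in every sKO library (log2 fold change 0.31, SE 0.18, edgeR adjusted p = 0.509).

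Outside the naming rule, and chosen after its values were seen, the chain-lengthening Ttll6 stood at 10.7, 6.42 and 3.42 CPM in WT and 2.76, 3.33 and 3.85 CPM in sKO, so that WT library 3 lay among the sKO libraries (log2 fold change -1.04, SE 0.36, edgeR adjusted p = 0.218). Ttll5, which starts chains and whose loss in the mouse impairs sperm, ranged from 51.8 to 78.00 CPM with overlapping groups and a log2 fold change of -0.27. Ttll2 had 0 to 3 counts per library. The summed level per kb of the chain-lengthening Ttll6, Ttll11 and Ttll13, divided by that of the chain-starting Ttll4, Ttll5 and Ttll7, was 0.585, 0.499 and 0.338 in WT and 0.185, 0.204 and 0.298 in sKO. This grouping was also chosen after values were seen and was not tested.

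Of the 3 glycylases edgeR called 0 and DESeq2 called Ttll8 lower, against 1.27% and 3.82% of all genes called lower. At an unadjusted edgeR p under 0.05, 1 was lower, against 8.54% of all genes. Ttll8, which starts glycine chains, stood at 23.7, 14.96 and 9.203 CPM in WT and at 1.68, 3.03 and 6.38 CPM in sKO, the lowest sKO to WT ratio of the tested members. The groups did not overlap, and values within each group differed severalfold. Of the exon bases of Ttll8 7.67% are also exons of AC117700.1 on the same strand. The log2 fold change was -2.10 (SE 0.52, edgeR adjusted p = 0.121, DESeq2 adjusted p = 0.0329), a mean 4.32-fold lower, and with each library left out it ranged from -2.79 to -1.70. Ttll3, the other initiating glycylase, had values of 11.6, 12.3 and 12.5 CPM in WT and 13.5, 14.3 and 13.2 CPM in sKO. It was higher in every sKO library (log2 fold change 0.17, SE 0.14, edgeR adjusted p = 0.637), and 5.61% of its exon bases are shared with its neighbour Arpc4. Ttll10, which lengthens glycine chains, ranged from 1.51 to 3.08 CPM with overlapping groups. Ttll12, an atypical family member without known glutamylase or glycylase activity, stood at 82.7, 122 and 109 CPM in WT and at 124, 120.3 and 98.7 CPM in sKO, with overlap (log2 fold change 0.13, SE 0.14, edgeR adjusted p = 0.743).

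All 4 tested Agbl genes had estimates below 0, against 44.7% of all genes. Of the 4, edgeR called 1 lower and DESeq2 2, against 1.27% and 3.82% of all genes. At an unadjusted edgeR p under 0.05, 3 were lower, against 8.54% of all genes. Agbl5, whose product removes the glutamate at the branch point of a chain, stood at 99.1, 92.7 and 76.4 CPM in WT and at 54.8, 54.3 and 63.2 CPM in sKO. The groups were apart, with WT library 3 and sKO library 3 nearest to each other. The WT mean of Agbl5 was 89.4 ± 11.7 CPM and its sKO mean 57.4 ± 5.01 CPM (SD over 3 libraries). On the log2 scale Agbl5 fell by 0.64, with an SE of 0.12 (edgeR adjusted p = 0.0337). Leaving out each library in turn gave estimates from -0.75 to -0.56 and edgeR adjusted p from 0.0125 to 0.188. Of the exon bases of Agbl5 9.60% are also exons of Ost4 on the opposite strand, and whether the counting used strand is not stated in the labels.

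Agbl2, which shortens long glutamate chains, stood at 41.9, 21.4 and 17.2 CPM in WT and at 7.21, 5.93 and 11.3 CPM in sKO. WT library 1 held about as much as the other WT libraries together, and all sKO libraries lay below. The log2 fold change was -1.72 (SE 0.38, edgeR adjusted p = 0.0794, DESeq2 adjusted p = 0.0118), a mean 3.29-fold lower, and -1.24 without WT library 1 (edgeR adjusted p = 0.0584, with a range of 0.000281 to 0.298 over all alternatives). Agbl3 ranged from 18.8 to 35.3 CPM and Agbl4 from 0.666 to 1.85 CPM, with overlapping groups and log2 fold changes of -0.40 and -0.42. Agbl1 had 0 to 8 counts per library and was not tested.

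**Figure D4:**
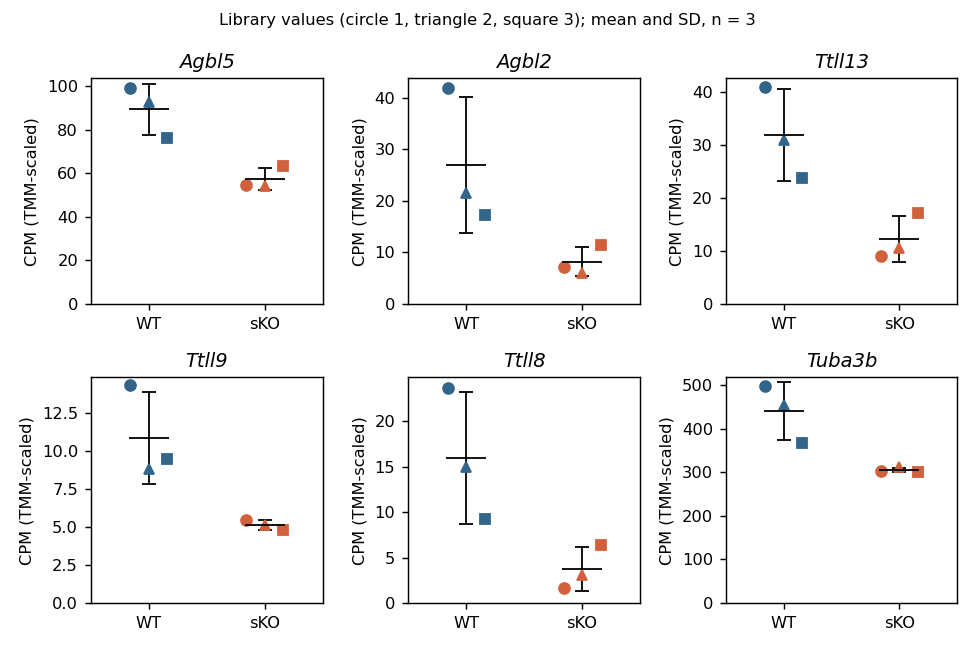
CPM (y axis, from 0) in each library for the 6 members called by edgeR or DESeq2, with the group mean and SD (n = 3). In each panel all sKO points lie below all WT points, for example 9.203 CPM in the lowest WT library against 6.38 CPM in the highest sKO library for Ttll8.

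The members that were lower are set here beside germ cell markers. Among the 9 members lower in every sKO library, WT library 1 was the highest WT library for 6, and sKO library 1 was the highest sKO library for 1. For the 20 members with overlapping groups these counts were 7 and 11. The same counts over all genes were not made. Summed pachytene spermatocyte markers (13 genes, 12 in the table, 2 of them under 1 CPM on average) stood at 1464, 988 and 693 CPM in WT and at 245, 279 and 444 CPM in sKO, in order of library number. Ttll13 and Ttll8 had the same order over the 6 libraries as this sum. Of that order, WT above sKO holds for any member lower in every sKO library. Agbl2 and Agbl5 shared the WT order, but stood lower in sKO library 2 than in sKO library 1. Ttll9 did not follow the order of the sum. It was lowest in sKO library 3 and higher in WT library 3 than in WT library 2. Tuba3b was nearly level in sKO (302 to 312 CPM). Of the 10 tested pachytene markers edgeR called 3 lower and 0 higher, against 1.27% and 0.0318% of all genes. DESeq2 called 7 lower and 0 higher, against 3.82% and 0.297% of all genes, and limma-voom called 0. At an unadjusted edgeR p under 0.05, 8 were lower and 0 higher, against 8.54% and 5.06% of all genes. Ldhc, a germ cell lactate dehydrogenase, was the tested pachytene marker with the largest fold difference. Its values were 127, 68.4 and 35.3 CPM in WT against 2.28, 3.88 and 6.65 CPM in sKO (edgeR adjusted p = 0.0657, DESeq2 adjusted p = 1.3e-07). Summed spermatid markers (10 genes, 6 of them under 1 CPM on average) stood at 23.6 to 28.9 CPM in WT and 22.8 to 26.0 CPM in sKO, most of it from Gapdhs (12.3 to 17.3 CPM) and Spaca1 (6.28 to 10.9 CPM), while the protamine genes Prm1 and Prm2 reached at most 0.220 and 0.187 CPM. Of the 4 tested spermatid markers edgeR called 1 lower, Actl7b, against 1.27% of all genes. Actl7b stood at 3.20, 1.83 and 0.684 CPM in WT against 0.180, 0.0605 and 0.275 CPM in sKO (edgeR adjusted p = 0.0417). Summed markers of early prophase spermatocytes (8 genes) stood at 1758, 1012 and 1199 CPM in WT and 815, 817 and 1325 CPM in sKO, with overlap. Of these 8 markers 7 had estimates below 0 (median -0.58, log2), against 44.7% of all genes. Spo11 was called lower by edgeR (adjusted p = 0.0253) and 2 markers by DESeq2, against 1.27% and 3.82% of all genes. Summed markers of undifferentiated spermatogonia ranged from 289 to 309 CPM in WT and 302 to 336 CPM in sKO. The part of spermatocyte RNA in the lower tubulin and tail-enzyme values was not tested.

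Somatic markers are given here beside Tuba1a and Tubb5, which were both highest in sKO library 1. Of the 4 members higher in every sKO library, sKO library 1 was the highest for 3 and sKO library 2 for 1. Summed peritubular myoid markers (6 genes) were also highest in sKO library 1, at 1129 CPM against 623 to 797 CPM in WT and 697 to 849 CPM in the other sKO libraries. So were the sums for Leydig cells (632 CPM), macrophages (137 CPM) and endothelial cells (136 CPM). The Leydig sum was without overlap, at 347 to 488 CPM in WT and 519 to 632 CPM in sKO. The summed Sertoli cell markers were instead highest in sKO library 2, at 6387 CPM. The 10 Sertoli cell markers all had estimates above 0 (median 0.24, log2), while 44.7% of all genes had estimates below 0. None was called by edgeR, DESeq2 or limma-voom, and 6 were higher at an unadjusted edgeR p under 0.05, against 5.06% of all genes. The part of these cells in the Tuba1a and Tubb5 values was not tested. Multiciliated epithelium, another source of axonemal transcripts, had Mcidas and Gmnc at 0 to 0.684 CPM and 0 to 0.300 CPM, and its 7 summed markers stood at 12.8 to 16.9 CPM in WT and 10.9 to 14.2 CPM in sKO. Within this list Cdhr4 stood at 8.30, 4.60 and 5.10 CPM in WT against 3.90, 2.60 and 2.58 CPM in sKO, and Deup1 at 1.37 to 2.52 CPM against 0.420 to 1.21 CPM. Ccno was higher in every sKO library (3.12 to 3.53 CPM in WT, 4.78 to 5.23 CPM in sKO). Of the 4 tested markers edgeR called 0 and DESeq2 1 lower, against 1.27% and 3.82% of all genes. At an unadjusted edgeR p under 0.05, 2 were lower and 1 higher, against 8.54% and 5.06% of all genes. The part of such cells in the tail-enzyme values was not tested.

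**Figure D5:**
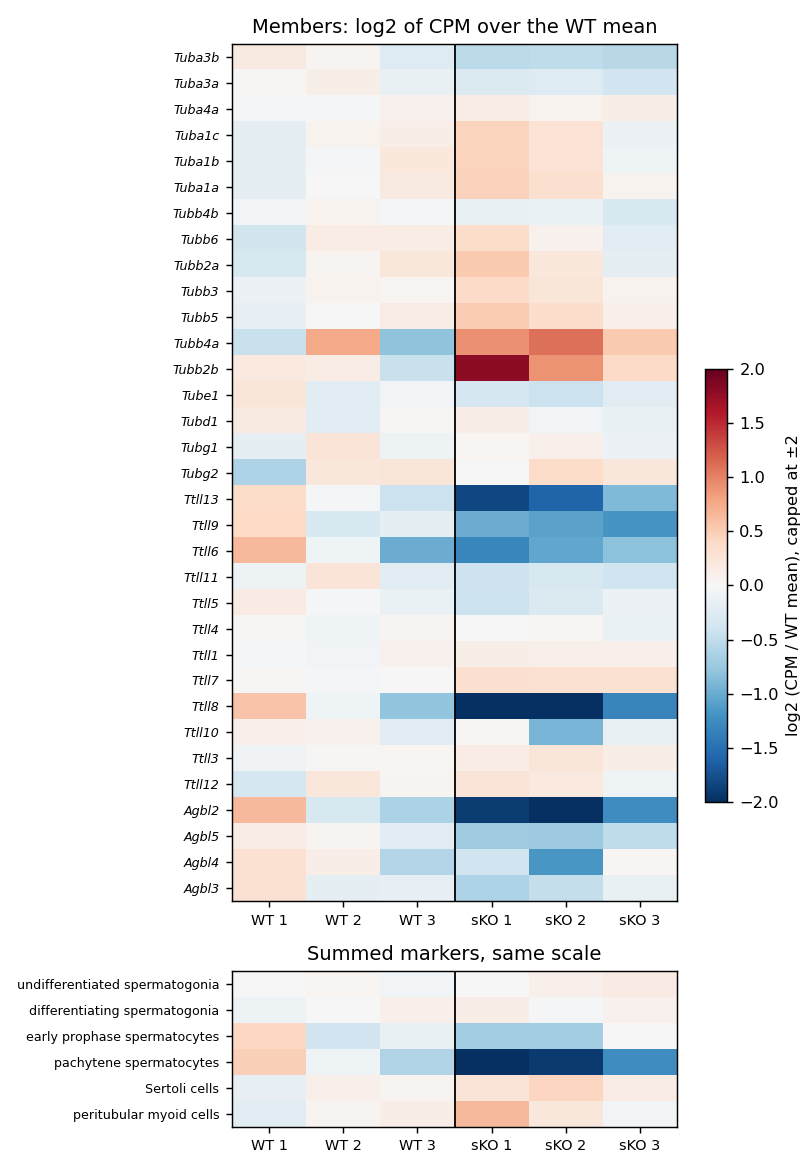
Log2 ratio of CPM to the WT mean (red above and blue below 0, capped at 2 in either direction) in each library for the 33 tested members (top) and for summed cell type markers (bottom). Ttll13, Ttll8, Agbl2 and the pachytene markers are deeper blue in sKO libraries 1 and 2 than in sKO library 3, where the pachytene sum is 444 CPM against 245 and 279 CPM.

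Promoters of the lower enzymes were read from RefSeq (GRCm38.p6) and searched for letters they may hold in common. The 250 bases before each annotated start were searched on both strands for GTTGCC, a half-site of RFX factors, which regulate ciliary genes, and for CAGTTG, a MYB core element. The windows below belong to the 4 enzymes called by edgeR or DESeq2 whose window overlaps no annotated exon in GENCODE M21 (for Agbl2, the first of its 2 annotated starts). They are written 5′ to 3′ on the gene's strand, with either motif in capitals.
Ttll9, chr2:152962235-152962484, plus strand: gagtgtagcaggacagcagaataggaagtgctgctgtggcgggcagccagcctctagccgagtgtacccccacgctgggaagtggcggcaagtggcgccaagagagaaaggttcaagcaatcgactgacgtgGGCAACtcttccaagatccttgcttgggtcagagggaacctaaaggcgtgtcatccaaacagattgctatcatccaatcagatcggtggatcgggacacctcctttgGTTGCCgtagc
Agbl2, chr2:90782477-90782726, plus strand: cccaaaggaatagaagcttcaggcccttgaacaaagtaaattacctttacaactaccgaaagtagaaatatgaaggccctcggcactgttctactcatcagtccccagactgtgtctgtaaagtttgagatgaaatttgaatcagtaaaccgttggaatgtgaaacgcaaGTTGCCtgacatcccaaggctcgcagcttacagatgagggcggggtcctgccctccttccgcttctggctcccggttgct
Ttll8, chr15:88954419-88954668, minus strand: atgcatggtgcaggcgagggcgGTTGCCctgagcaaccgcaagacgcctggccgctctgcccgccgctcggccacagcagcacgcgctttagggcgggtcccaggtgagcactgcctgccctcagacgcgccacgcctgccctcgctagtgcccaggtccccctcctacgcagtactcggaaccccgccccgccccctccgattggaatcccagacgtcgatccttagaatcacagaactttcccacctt
Ttll13, chr7:80246126-80246375, plus strand: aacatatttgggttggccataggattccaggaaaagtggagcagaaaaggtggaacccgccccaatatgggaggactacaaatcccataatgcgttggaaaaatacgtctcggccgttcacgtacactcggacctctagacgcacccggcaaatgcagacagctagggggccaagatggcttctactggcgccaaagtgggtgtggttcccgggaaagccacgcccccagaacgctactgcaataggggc

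The RFX half-site was found in the windows of 9 of the 32 members with a promoter entry, and in 11.8% of all 27025 genes with one. It was present in Ttll9 (first base at -118 and -11 from the start), Agbl2 (-80, in the window of the first start and not of the second) and Ttll8 (-228), and these letters were absent from the windows of Ttll13, Agbl5 and Tuba3b, the other members called by edgeR or DESeq2. The MYB core was found in 6 of the 32 members and 12.6% of all genes, and in Ttll5, Ttll10, Tuba1c and Tuba8 it shares letters with the RFX half-site. Of the 6 members called lower by DESeq2, Agbl2 held the MYB core, in the window of its second start. Both half-sites facing each other 2 bases apart (GTTGCCNNGGCAAC) occurred in 1 member, Agbl3, and in 26 of all 27025 genes. This pair was not among the motifs planned beforehand, and no other spacing was searched. Its rarity is therefore no evidence about Agbl3. The last 40 bases before the start of Agbl3, a gene chosen here after its values were seen, hold the pair. Both half-sites are in capitals, on the plus strand of GRCm38.p6.
Agbl3, chr6:34780392-34780431: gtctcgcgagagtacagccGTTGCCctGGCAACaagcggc
These matches describe letters in the windows and say nothing about binding, and Agbl3 was not called (25.2 to 35.3 CPM in WT and 18.8 to 25.8 CPM in sKO).

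Over 57 other genes of tubulin biology in 6 lists edgeR called 1 lower and 0 higher, against 1.27% and 0.0318% of all genes, so a count of 1 is near the background. DESeq2 called 4 lower and 0 higher, against 3.82% and 0.297% of all genes, and limma-voom called 0. At an unadjusted edgeR p under 0.05, 13 were lower and 1 higher, against 8.54% and 5.06% of all genes. The median log2 fold change was -0.06, against 0.03 for all genes tested. The called gene was Katnal2, a katanin-like severing protein needed for sperm formation in the mouse, which was 1 of 9 severing genes. It stood at 24.1, 16.97 and 13.5 CPM in WT and at 6.97, 7.81 and 7.81 CPM in sKO, without overlap. On the log2 scale Katnal2 fell by 1.27, with an SE of 0.21 (edgeR adjusted p = 0.0257), and the call was lost on leaving out WT library 2 (edgeR adjusted p = 0.137) or sKO library 1 (0.0901) or 2 (0.159). Over all alternatives its adjusted p ranged from 1.69e-09 to 0.159.

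Of 5 genes for partners of the polyglutamylase complex 0 were called by edgeR, 1 lower by DESeq2 and 2 lower at an unadjusted p under 0.05; Cstpp1 had the smallest p (log2 fold change -0.42, SE 0.10, edgeR adjusted p = 0.0831). Of 7 other tail enzymes 0 were called by edgeR, 1 lower by DESeq2 and 2 lower at an unadjusted p under 0.05. The smallest p belonged to Matcap2, a relative of the detyrosinating enzyme Matcap1 (log2 fold change -0.48, SE 0.13, edgeR adjusted p = 0.111). Agtpbp1, the carboxypeptidase lost in the Purkinje cell degeneration mouse and chosen here after its values were seen, ran from 61.0 to 80.7 CPM in WT and 48.3 to 56.6 CPM in sKO (log2 fold change -0.41, edgeR adjusted p = 0.151). Of 22 folding genes 0 were called by edgeR and 1 lower by DESeq2. At an unadjusted p under 0.05, 5 were lower and 1 higher, against 8.54% and 5.06% of all genes. The smallest p was that of Cct6b, a testis form of a chaperonin subunit (log2 fold change -1.12, SE 0.29, edgeR adjusted p = 0.0962). For 11 genes of the γ-tubulin ring complex and its anchors and 3 genes of tubulin acetylation, edgeR and DESeq2 called 0, and 0 passed an unadjusted p of 0.05; Tubgcp2 and Hdac6 had the smallest p (edgeR adjusted p = 0.439 and 0.508).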

How the data were processed

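Poly(A) RNA of 6 testis samples was sequenced. The authors deposited raw read counts by gene symbol, as a single table; per the submitters' processing notes, Trim Galore, HISAT2 and featureCounts were used on build mm39. Their versions, the annotation release and the strand setting were not found in the labels. Columns headed con and scKO were read as WT and sKO by replicate number. Libraries of a group differed by more than sampling noise (chi-square over its degrees of freedom, 4.81 to 22.7).

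Counts were tested with edgeR 4.0.16 in R 4.3.3 (filterByExpr, TMM, robust quasi-likelihood fit, no covariates), with adjustment over all 18860 genes tested. Each SE is the log2 fold change divided by the root of its F. Alternatives were RLE scaling, no filter, DESeq2 1.42.0, limma-voom (limma 3.58.1, robust), a replicate block and fits without single libraries; scripts were tested on simulated data. Exon lengths, shared 50-base windows and exon overlaps came from GENCODE M21 (GRCm38), so they may differ from the authors' annotation.

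Members were given with library values when their mean was at least 1 CPM and they were called by edgeR or DESeq2 or had groups without overlap, or when they were among the 2 most abundant of their family per kb. Of the pathway lists, called genes or the gene with the smallest p were named. Members and lists were chosen with earlier results of these data known. Isotype shares, ratios and their alternatives were chosen after seeing the data. Tail protein sequences were not used here.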

Additional observations from a re-analysis of the deposited data

How the results depend on the processing

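The 3 lower calls among the members were 4 with RLE scaling, 6 without the filter, 6 with DESeq2, 0 with limma-voom, 0 with the replicate block and 0 without both libraries numbered 1, and from 0 to 6 with each library left out. Without the filter, and without WT library 3, the calls included Ttll6 and not Ttll8. With DESeq2 they included Ttll8 and not Ttll6. Calls of higher members were 0, except 1 (Tubb2b) without the filter, and 0 to 1 with each library left out. Over all genes 240 lower calls became 992 without the filter, 721 with DESeq2, 15 with limma-voom, 21 with the replicate block, 155 without both libraries numbered 1 and 0 to 624 with each library left out. The 6 higher calls became 154, 56, 0 and 0 under the first 4 of these and 0 to 31 with each library left out. The 1 lower call of the pathway lists became 7 without the filter, 4 with DESeq2, 0 with limma-voom, 0 with the replicate block and 0 to 2 with each library left out. Among the 19 members with library values, 6 pathway genes and Rif1, to which these gene-level alternatives were applied, signs turned for Tubg1, Tubd1 and Ttll12. Tubg1 was at -0.0092 with RLE and with DESeq2, -0.0012 without the filter, -0.11 without both libraries numbered 1 and -0.08 to 0.16 with each library left out. Tubd1 ranged from -0.12 to 0.083 and Ttll12 from -0.01 to 0.26 with each library left out, and Ttll12 was at -0.092 without both libraries numbered 1. The median of all genes lay between -0.0027 and 0.0366 (log2) in all of these fits. Shares of Tuba3a and Tuba3b, Tubb4b and Tubb5 kept their direction with raw counts and with each library left out, the first between -14.4 and -8.68 percentage points. The cause of these shifts was not tested.

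Same-numbered libraries did not deviate together (correlations of deviations from the group means -0.34, 0.12 and -0.28 for numbers 1 to 3), so the numbers were not treated as pairs; WT library 1 deviated most like sKO library 3 (0.45). With the replicate block 8 members were lower and 2 higher at an unadjusted p under 0.05, against 1324 and 605 of all 18860 genes tested. With 6 libraries, depth limits low members such as Tubb1, Tuba8, Ttll2 and Agbl1, at most 18 counts, to no statement about a difference.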
